A study of Mus musculus with 6 samples.

Results

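The genes described are 8 members of the machinery of cell death and inflammation, read in sorted cells labelled as neural crest cells (NCCs), from embryos with and without a deletion of both copies of the genes of the chromatin remodelling subunits BAF155 and BAF170. They are the inflammatory caspases Casp1 and Casp4, the apoptotic caspases Casp6, Casp8 and Casp9, the inflammasome sensor Nlrp3, its adaptor Pycard and the pore protein Gsdmd. They were chosen by symbol, through the Ensembl identifiers of the counts and GENCODE mouse release M21, and make up 8 of 46983 genes counted. RNAseq was performed on cells sorted by GFP from mouse embryos at E11.25, with 3 control and 3 deficient libraries. Control embryos were Wnt1 Cre/+, with 1 floxed copy each of BAF155 and BAF170 (flox/+) and the Rosa26 mTmG/+ reporter, so they had lost 1 copy of both genes in the cells where Cre was active. Deficient embryos were Wnt1 Cre/+ with both copies floxed (BAF155 flox/flox, BAF170 flox/flox) and the same reporter. Wnt1 Cre also acts in the dorsal neural tube, so GFP-positive cells need not all be NCCs. The study's methods name 3 control and 3 deficient embryos for the sort, as many as there are libraries, but the labels tie no library to an embryo or litter, and the p-values measure the spread between these libraries alone.

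Caspases are proteases that cut their substrates after aspartate residues. In apoptosis, an initiator caspase (caspase-8 downstream of death receptors, caspase-9 on the apoptosome) activates executioner caspases, and the cell is taken apart with its membrane kept intact. In pyroptosis, a sensor such as NLRP3 gathers the adaptor ASC, the product of Pycard, and caspase-1. Caspase-1 then matures interleukin-1β and interleukin-18 and cuts gasdermin D, whose fragment makes pores in the membrane. The inflammasome is best known from macrophages and other myeloid cells.

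The 8 genes are protein coding. On GRCm38, Casp1 (ENSMUSG00000025888) lies at chr9:5298517-5307265 on the plus strand and Casp4 (ENSMUSG00000033538) next along the same strand at chr9:5308828-5336783. Stretches upstream of the start of Casp1, Casp4 and Casp9 are shown because the first 2 belong to neighbouring inflammatory caspases and the last to an apoptotic caspase, and their base composition differs. They were taken from RefSeq (GRCm38.p6) and are given 5′ to 3′, with matches to the letters named below in capitals and bases past the GENCODE gene start left out.
Casp1, chr9:5298267-5298516, plus strand: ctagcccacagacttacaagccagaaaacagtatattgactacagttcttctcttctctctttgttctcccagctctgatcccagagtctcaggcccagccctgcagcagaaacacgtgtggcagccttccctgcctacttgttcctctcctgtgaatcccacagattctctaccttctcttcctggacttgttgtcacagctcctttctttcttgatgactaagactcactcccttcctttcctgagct
Casp4, chr9:5308599-5308827, plus strand: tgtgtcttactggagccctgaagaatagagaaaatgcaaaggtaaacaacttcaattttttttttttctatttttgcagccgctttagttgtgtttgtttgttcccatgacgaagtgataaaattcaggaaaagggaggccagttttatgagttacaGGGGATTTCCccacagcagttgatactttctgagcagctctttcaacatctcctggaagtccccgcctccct
Casp9, chr4:141793362-141793611, plus strand: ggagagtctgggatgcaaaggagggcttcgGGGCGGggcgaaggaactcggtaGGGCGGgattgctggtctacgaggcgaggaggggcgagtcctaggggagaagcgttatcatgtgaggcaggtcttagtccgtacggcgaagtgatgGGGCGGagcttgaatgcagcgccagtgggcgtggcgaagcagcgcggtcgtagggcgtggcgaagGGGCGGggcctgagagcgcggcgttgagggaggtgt

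Windows of the 250 bases before a RefSeq transcript start were found for 7 of the 8 genes, in 9 windows, and none for Gsdmd. The window of Casp8 and 1 of those of Nlrp3 lie inside the GENCODE gene, before a later start. Casp9 had 66% G and C and 25 CpG dinucleotides in its window, and Casp6 had 58.4% and 11. The windows of Casp1, Casp4, Casp8, Nlrp3 and Pycard held between 1 and 5 CpG dinucleotides, fewer than the median of 6 over 32851 windows of the same length. The letters GGGCGG, a GC box, occurred on either strand at 4 places in the Casp9 window and at 1 in the Casp6 window, in none of the other members and in 32.7% of all windows. An NF-kB type motif, GGG and TTTCC with any 2 bases between them, occurred in Casp4 alone among the members, against 1.41% of all windows. Pycard held the only match to GAGGAAGT, a PU.1 type motif found in 2.44% of windows, and no member held an interferon response type motif, a pair of GAAA with any 2 bases between them, present in 2.98%, or TATAAA, the TATA box, present in 12.4%. All motifs were searched on both strands and were chosen after the sequences had been seen. A match in these letters is not evidence of a bound factor.

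Library totals were 8191219 to 11661941 counts in controls and 12633319 to 19808620 in deficient libraries, so every deficient library was the deeper. Of the deleted genes, Smarcc1, which encodes BAF155, was at 42.1, 55.0 and 35.1 CPM (counts scaled to library size, here normalized by TMM) in controls and at 29.4, 26.4 and 24.5 in deficient libraries, and it fell by 0.71 on the log2 scale (SE 0.16, edgeR quasi-likelihood test, Benjamini-Hochberg adjusted p = 0.0676). Smarcc2, which encodes BAF170, had a log2 fold change of −0.11 (SE 0.058, edgeR adjusted p = 0.251). Scaling the libraries to embryonic markers turned the direction of both, to 0.24 and 0.79. Smarcc1 no longer passed the adjusted p in the absence of control replicate 1, deficient replicate 2 or deficient replicate 3 (edgeR adjusted p = 0.223, 0.136 and 0.225) or when scaled to macrophage markers (edgeR adjusted p = 0.122), and in the absence of control replicate 2 it had a log2 fold change of −0.53. These counts do not isolate the floxed exons. The labelled cell type was checked against marker genes. Summed markers of mesenchymal crest came to 203 to 330 CPM in controls and 114 to 158 CPM in deficient libraries, whereas 15 macrophage markers, led by Ctss, Lyz2 and C1qb, came to 13390 to 15520 and 15630 to 17070 CPM. Crest markers were present, but this balance goes against the label, since macrophage markers exceeded crest markers in all 6 libraries. In such bulk samples, fewer cells of a type and less RNA per cell cannot be told apart.

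All 8 genes were counted in every library and passed the filter on low counts. Their levels were compared with each other per kilobase of merged exon, which pools all annotated exons and can be longer than the transcript made. Casp1 stood highest, with a mean of 224 CPM per kilobase over the 6 libraries, at the 98.4th percentile of tested genes. Casp4 and Gsdmd followed at 81.6 and 81.4 CPM per kilobase, and their ranges over libraries overlapped. Casp8 at 52.5 and Nlrp3 at 44.2 CPM per kilobase also had overlapping ranges, although Casp8 was the higher in each library. By CPM alone their order turned, with means of 152 for Casp8 and 179 for Nlrp3. Pycard at 8.76, Casp9 at 4.01 and Casp6 at 1.63 CPM per kilobase were separate from their neighbours in this order, and Casp6 reached the 37.9th percentile only. The inflammatory caspases and the substrate of caspase-1 were thus the most abundant, and an initiator and an executioner of apoptosis the least.

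The comparison of deficient with control libraries asked whether these genes were transcribed at other levels when both BAF subunits were deleted. None of the 8 passed the thresholds for a called gene with edgeR, DESeq2 or limma-voom. A call needed an adjusted p of at most 0.1 and a change of 0.58 or more on the log2 scale either way. It also needed a mean of 2 CPM or more. With edgeR, 4.94% of 13961 tested genes were called, 681 lower and 8 higher in deficient libraries. The thresholds were taken from the study, which reported more called genes in both directions from its own limma fit. That list was not reproduced by these fits, so members not called here may still be called there. By adjusted p alone, Nlrp3 and Casp1 rose, 2 of 8, where 4.18% of all tested genes were higher and 7.75% lower. All 8 had a higher mean in deficient libraries, by 0.08 to 0.26 on the log2 scale with a median of 0.18, although Casp6 and Casp9 turned lower when libraries were scaled to macrophage markers. The median over all tested genes was −0.02, and 6656 of the 13961 had a higher mean in deficient libraries. At an unadjusted p under 0.05 stood 5 of the 8, Casp1, Casp4, Casp8, Nlrp3 and Gsdmd, and 27.3% of all tested genes. In 4 of the 8 every deficient library lay above every control, which was so for 15.0% of tested genes. None of the 8 lay wholly below, as 16.4% of tested genes did.

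**Figure D1:**
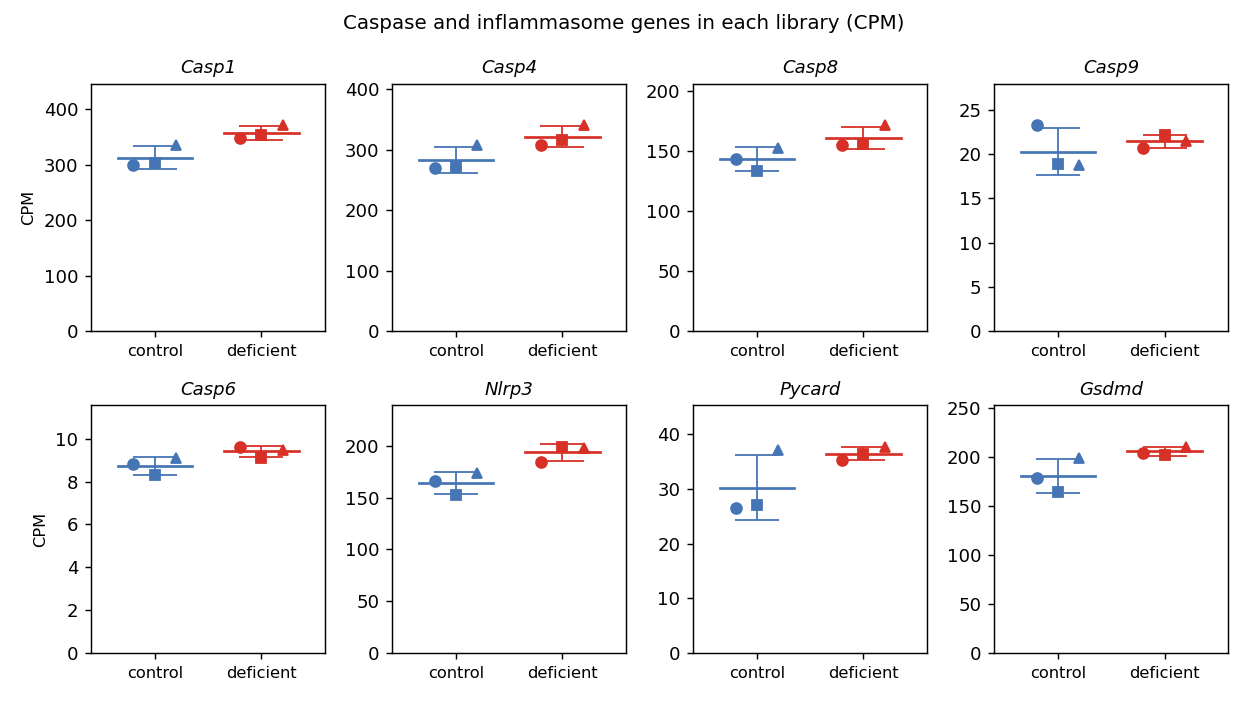
CPM of each gene in the 3 control (blue) and 3 deficient (red) libraries, with circle, square and triangle for replicates 1, 2 and 3, and the mean and SD as lines; the axes start at 0 and differ between panels. Differences between groups were small against the level of each gene, and groups overlapped for Casp4, Casp6, Casp9 and Pycard.

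Among the inflammatory caspases, Casp1, the protease of the inflammasome, stood at 299.8, 303 and 337 CPM in control replicates 1 to 3 and at 348, 353 and 372 CPM in deficient replicates 1 to 3. All deficient libraries were above all controls, with control replicate 3 the nearest. Casp1 rose by 0.19 on the log2 scale (SE 0.064, 95% interval 0.051 to 0.33, edgeR adjusted p = 0.0998). Its adjusted p was at the edge of the threshold of 0.1, and its change was short of the fold threshold. Casp4, the mouse caspase that senses cytosolic lipopolysaccharide and cuts gasdermin D without the inflammasome, stood at 269.6, 271 and 309 CPM in controls and at 308, 317 and 341 CPM in deficient libraries. Its groups overlapped at control replicate 3 and deficient replicate 1. The log2 fold change was 0.18 (SE 0.070, 95% interval 0.032 to 0.34, edgeR adjusted p = 0.122). Both genes had nearly the same profile over the 6 libraries (r = 0.989, on log2 CPM).

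Among the apoptotic caspases, Casp8, the initiator recruited to death receptors, stood at 144, 133 and 153 CPM in controls and at 155, 156 and 172 CPM in deficient libraries. The groups were separate by a narrow gap. Its log2 fold change was 0.17 (SE 0.069, 95% interval 0.017 to 0.32, edgeR adjusted p = 0.145). Casp9, the initiator of the apoptosome, stood at 23.3, 18.9 and 18.7 CPM in controls and at 20.7, 22.1 and 21.5 CPM in deficient libraries. Control replicate 1 was the highest of all 6, and the other controls were the lowest. The log2 fold change of Casp9 was 0.080 (SE 0.11, 95% interval −0.16 to 0.32, edgeR adjusted p = 0.67). Casp6, an executioner that cuts lamins, stood at 8.83, 8.29 and 9.11 CPM in controls and at 9.63, 9.10 and 9.495 CPM in deficient libraries. With 62 to 200 counts per library, Casp6 was the least deeply covered, and its groups met at 9.1 CPM. Its log2 fold change was 0.10 (SE 0.14, 95% interval −0.21 to 0.42, edgeR adjusted p = 0.685).

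Nlrp3, the sensor that responds to potassium efflux and membrane damage, stood at 166, 153 and 174 CPM in controls and at 185, 199 and 198 CPM in deficient libraries. All deficient libraries were above all controls, and the adjusted p was the smallest of the 8. Nlrp3 rose by 0.24 on the log2 scale (SE 0.064, 95% interval 0.098 to 0.38, edgeR adjusted p = 0.0773). Pycard, the adaptor ASC, stood at 26.5, 27.0 and 37.1 CPM in controls and at 35.2, 36.3 and 37.7 CPM in deficient libraries. Control replicate 3 lay within the deficient range and the other controls lay well below it. The log2 fold change of Pycard was 0.26 (SE 0.12, 95% interval −0.0062 to 0.53, edgeR adjusted p = 0.192). Without control replicate 3 it was 0.44 (edgeR adjusted p = 0.0155), in a fit where 25.7% of all tested genes passed. With any other library left out it was 0.17 to 0.28 (edgeR adjusted p = 0.231 to 0.484). Gsdmd, the pore protein, stood at 179, 164 and 199 CPM in controls and at 205, 202 and 211 CPM in deficient libraries. All deficient libraries were above all controls, and those of the deficient group lay close together. The log2 fold change of Gsdmd was 0.18 (SE 0.071, 95% interval 0.029 to 0.34, edgeR adjusted p = 0.126).

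The upper end of the 95% interval was below the fold threshold of 0.58 for each of the 8 genes, the highest being 0.53 for Pycard. The number of members past the adjusted p moved with the library left out. It was 0 when either of control replicates 1 and 2, or either of deficient replicates 2 and 3, was absent, 1 in the absence of deficient replicate 1 (Nlrp3, adjusted p = 0.0629) and 6 in the absence of control replicate 3, all by edgeR. The whole table moved likewise. The share of all tested genes higher by adjusted p was 0 when either of control replicates 1 and 2 was absent, and also with deficient replicate 3 absent. It was 0.63% and 3.29% with deficient replicates 2 and 1 absent in turn, and 11.8% with control replicate 3 absent. The edgeR adjusted p of Casp1 ran from 0.115 to 0.339 in the 5 of these 6 sets where it no longer passed. That of Nlrp3 ran from 0.170 to 0.255 in the 4 sets where Nlrp3 no longer passed. Reads of Casp9 could be shared with Cela2a and Ctrc, and those of Pycard with Gm45205, which overlap them on the opposite strand, since the strand setting of the counting was not given in the sources used here. Casp8 overlaps Gm37760 on the same strand.

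**Figure D2:**
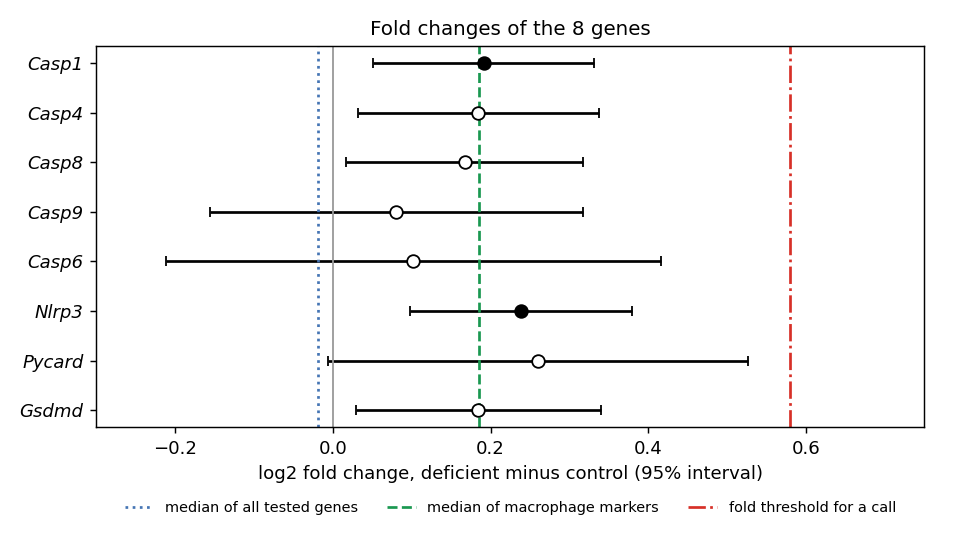
Log2 fold change of each gene, deficient minus control, with its 95% interval from the edgeR quasi-likelihood fit; filled points have an adjusted p of at most 0.1. All 8 points lie above 0 and below the fold threshold of 0.58, and Casp6 and Casp9 turned lower only when libraries were scaled to macrophage markers.

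Inflammatory and apoptotic caspases were then set against each other within each library. The summed CPM of Casp1 and Casp4 was 569, 574 and 645.5 in controls and 655, 670.3 and 713 in deficient libraries. The summed CPM of Casp6, Casp8 and Casp9, of which Casp8 gave most, was 176, 160.3 and 180.4 in controls and 185.5, 187 and 203 in deficient libraries. Both sums were separate between groups. The ratio of the inflammatory to the apoptotic sum was 3.24, 3.58 and 3.58 in controls and 3.53, 3.59 and 3.52 in deficient libraries. Control replicate 1 had the lowest ratio, and the other 5 libraries lay together with the groups mixed. On the log2 scale the ratio was 1.79 ± 0.083 (SD, n = 3) in controls and 1.83 ± 0.014 (SD, n = 3) in deficient libraries, a difference smaller than the SD of the controls. The ratio does not depend on how libraries are scaled, and no test was run on it because the classes were chosen with earlier results known.

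**Figure D3:**
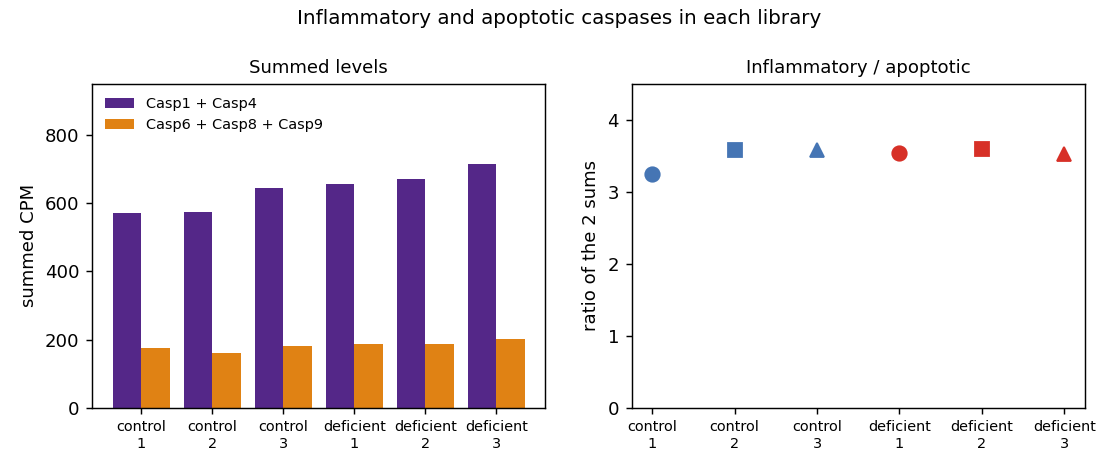
Summed CPM of the inflammatory (Casp1 and Casp4) and apoptotic (Casp6, Casp8 and Casp9) caspases in each library (left), and the ratio of the sums (right; blue control, red deficient). The ratio lies between 3.24 and 3.59, and the groups overlap.

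Markers of macrophages moved with these genes. All 15 had a higher mean in deficient libraries, as had 6656 of 13961 tested genes. Their log2 fold changes were 0.15 to 0.25 with a median of 0.19, and 1 of them, Adgre1, passed the adjusted p (edgeR adjusted p = 0.0924). None of the 15 was at 0. Their summed levels were separate between groups by a narrow gap, at 15520 CPM in the highest control and 15630 CPM in the lowest deficient library. Taken singly, C1qa, C1qc, Tyrobp, Cx3cr1, Cd68, Fcgr3, Laptm5 and Aif1 overlapped between groups. The other markers were higher in every deficient library than in any control, and 15.0% of all tested genes were separate in this direction. When each member was expressed per 1000 CPM of summed macrophage markers, the groups overlapped for all 8. Casp1 was then at 21.1, 22.6 and 21.7 in controls and at 22.3, 21.6 and 21.8 in deficient libraries. Nlrp3 was at 11.7, 11.4 and 11.2 in controls and at 11.8, 12.2 and 11.6 in deficient libraries. The ratio of deficient to control means ran from −0.11 for Casp9 to 0.092 for Pycard on the log2 scale. With libraries scaled so that macrophage markers were level, none of the 13961 tested genes passed the adjusted p in either direction (3061 had an unadjusted p under 0.05, none of them a member). The members' median was then 0.03 and that of all tested genes −0.17.

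**Figure D4:**
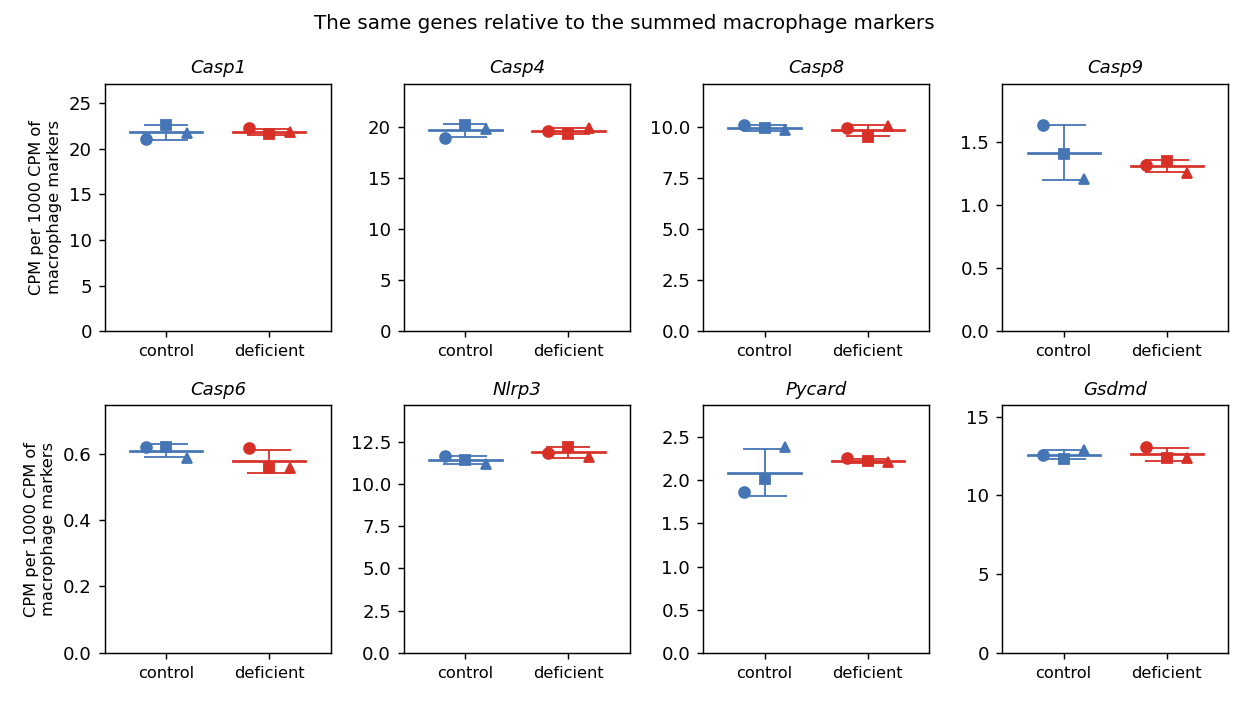
The same genes as CPM per 1000 CPM of 15 summed macrophage markers, in the 3 control (blue) and 3 deficient (red) libraries, with mean and SD; the axes start at 0. The groups overlap in all 8 panels.

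Embryonic markers moved the other way. Of 15 tested mesenchymal crest markers, 9 fell by adjusted p, where 7.75% of all tested genes were lower. The list median was −1.13 on the log2 scale, and none was higher in mean. Over all tested genes, 1082 were lower by adjusted p. That number was 0, 75 and 1942 in the absence of control replicates 1, 2 and 3 in turn. It was 1505, 247 and 9 in the absence of deficient replicates 1, 2 and 3. Without control replicate 1 no gene passed in either direction. Of 11 tested sensory and autonomic neuron markers 2 fell (median −0.89), as did 3 of 7 glial and early crest markers (median −1.21) and 1 of 10 neural tube markers (median −0.74). With libraries scaled to 33 of these markers, the median of all tested genes was 0.88 and that of the members 1.06, so that 8 of 8 members and 8685 genes were called higher. Relative to the median of all tested genes, the members' median was 0.20 higher in TMM-scaled libraries. It was 0.20 higher when scaled to macrophage markers and 0.18 higher when scaled to embryonic markers. A scaling shifts all genes of a library alike, so this difference had to stay nearly the same and is no test of the result. Summed neutrophil markers were 291 to 323 CPM in controls and 340.4 to 380.5 CPM in deficient libraries, nearly all of it Csf3r. Of 4 tested neutrophil markers (median 0.36), Csf3r rose by 0.21 (edgeR adjusted p = 0.0926). S100a8 and S100a9 had log2 fold changes of 0.51 and 0.53 (edgeR adjusted p = 0.105 and 0.109). Ngp went the other way, with a log2 fold change of −0.27 (edgeR adjusted p = 0.525). A further 6 of the 10 listed, among them Ly6g, Elane and Mpo, were too low to test. Erythroid markers summed to 22.3 to 68.2 CPM in controls and 17.1 to 23.2 CPM in deficient libraries, and none of 8 tested passed. Endothelial markers summed to 175.5 to 196 and 201 to 213 CPM, most of it Kdr, with none of 5 past the test, and epithelial markers stayed at or under 2.94 CPM. Beyond the scalings given, the part of these cell types in the members' values was not tested.

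The pathways around the members were read from lists of 70 tested genes, of which 11 rose and 2 fell by adjusted p and none met the thresholds for a call. Over all tested genes, 4.18% were higher and 7.75% lower by adjusted p, and 4.94% were called. None of the 70 passed when either of control replicates 1 and 2, or either of deficient replicates 2 and 3, was absent, 10 passed in the absence of deficient replicate 1 and 32 in the absence of control replicate 3, where 14.1% and 25.7% of all tested genes passed. Of 4 other tested caspases (median 0.10), 1 rose and 1 fell by adjusted p. The gene that fell, Casp2, did so by 0.35 on the log2 scale (SE 0.098, edgeR adjusted p = 0.0784). Casp2 stood at 21.9, 20.9 and 19.9 CPM in controls and at 16.8, 16.2 and 16.2 CPM in deficient libraries, a fall that turned to a value of 0.55 when scaled to embryonic markers. None of 9 tested genes of the apoptosome and its inhibitors passed (median 0.12), and the most abundant of them by CPM, Birc3, an inhibitor of apoptosis, had a log2 fold change of 0.18 (edgeR adjusted p = 0.107). Of 13 tested death receptor and necroptosis genes, 3 rose (median 0.19). Fas, the death receptor, rose by 0.23, Cyld, a deubiquitinase of the receptor complex, by 0.27 and Mlkl, which makes the pores of necroptosis, by 0.20 on the log2 scale (edgeR adjusted p = 0.0901, 0.0784 and 0.0919). The study named Fas among apoptosis genes on these libraries, so its direction is not independent evidence. Of 8 tested substrates and execution genes, 1 fell (median 0.06): Parp1, a DNA repair enzyme cut in apoptosis, had a log2 fold change of −0.54 (SE 0.16, edgeR adjusted p = 0.0934), with overlapping groups, and of 0.41 when scaled to embryonic markers.

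On the inflammasome side, 2 of 15 tested sensors and regulators rose (median 0.20), where 4.18% of all tested genes were higher by adjusted p. They were Mefv, the pyrin sensor, by 0.21 and Card19 by 0.26 on the log2 scale (edgeR adjusted p = 0.0774 and 0.0798). Of 8 tested cytokine and pore genes 2 rose (median 0.19), Il18bp, the decoy that binds interleukin-18, by 0.18 and Ninj1, which ruptures the membrane after pore formation, by 0.19 (edgeR adjusted p = 0.092 and 0.0957). The cytokine matured by caspase-1, Il1b, was at 342 and 392.5 CPM in control and deficient means (log2 fold change 0.20, edgeR adjusted p = 0.103), and the receptor antagonist Il1rn, the most abundant of the list, at 7078 and 8202 CPM (0.21, edgeR adjusted p = 0.121). Of 13 tested priming genes, which bring inflammasome genes up before activation, 3 rose (median 0.20): Tlr2 by 0.26, its co-receptor Cd14 by 0.22 and the kinase Irak4 by 0.44 on the log2 scale (edgeR adjusted p = 0.0739, 0.0843 and 0.0901). In each list with genes that rose, the median was between 0.10 and 0.20, beside 0.19 for the macrophage markers, and no list was tested against another.

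**Figure D5:**
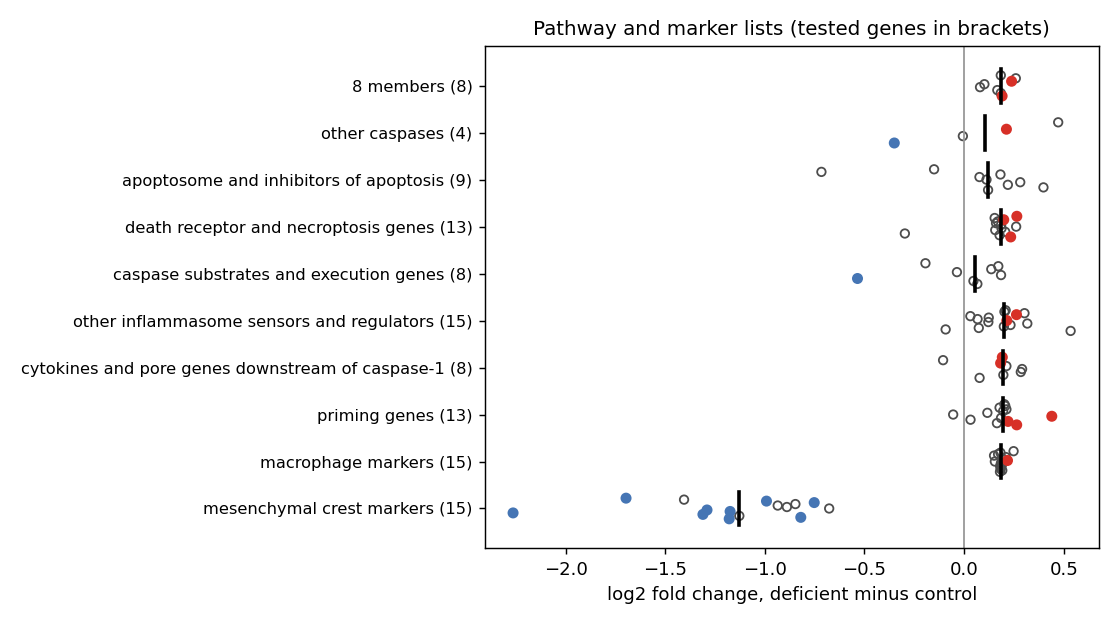
Log2 fold change of each tested gene, deficient minus control, in the members, 7 pathway lists and 2 marker lists; red and blue points rose or fell at an adjusted p of at most 0.1, open points did not pass, and the black bar is the median. Pathway medians lie between 0.06 and 0.20, those of the macrophage markers at 0.19 and of the mesenchymal crest markers at −1.13; scaled to embryonic markers, Casp2 and Parp1 turn higher.

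The genes most like each member were read from the Pearson correlation of log2 CPM over the 6 libraries, among 10757 tested genes. The closest to Casp1 were Cd86, P2ry14 and Tank, to Casp4 Ctsh, Xdh and Ppp1ca, to Casp8 Hpcal1, Hat1 and Rab1b, and to Nlrp3 Gna13, Timp2 and Elf4. For Gsdmd they were Etv6, Tspo and Sik3, for Pycard Gsap, Edn1 and Pxk, for Casp6 Fam160b2, Leng9 and S100a8, and for Casp9 Slc40a1, Bnip3l and Psmd1. These correlations ran from 0.988 to 0.998. With 6 libraries in 2 groups of unlike depth such values are common: 750 genes, or 6.97% of the others, reached 0.95 with Casp1. Only 11 did so with Casp9. Casp9 was also the member least like the rest, with correlations from −0.11 with Pycard to 0.43 with Nlrp3, whereas the other 7 had correlations of 0.79 to 0.989 with one another.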

How the data were processed

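RNAseq was read for sorted cells labelled as NCCs in 3 control and 3 libraries deficient in both BAF subunits. The authors trimmed adapters with cutadapt, aligned the reads with STAR (GRCm38; strand-specific poly(A) libraries) and deposited raw counts per gene from featureCounts; the annotation release, strand setting and treatment of multimapping reads were not given in the sources used here, so reads shared by related caspases may be split or dropped. The deposited counts were fitted in R 4.3.3 with edgeR 4.0.16: filterByExpr (minimum count 10, minimum total 15), TMM and a robust quasi-likelihood fit on condition alone, with Benjamini-Hochberg adjustment over 13961 genes. The common biological coefficient of variation was 12.8%. Standard errors come from the quasi-likelihood F statistic and intervals are 95%. Log2 CPM used a prior count of 2. Identifiers were matched to GENCODE M21 without version, which named 46488 of 46983.

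The members and all gene lists were chosen with earlier results of these data known. The genes named are the members, Smarcc1 and Smarcc2, pathway genes with an adjusted p of at most 0.1 and otherwise the most abundant of a list, and the 3 genes most like each member; Il1b and the marker genes were picked for their role or after their values were seen. Alternatives were DESeq2 1.42.0, limma-voom 3.58.1, library totals, relative log expression (RLE) size factors, other filters and thresholds, a replicate block, each library left out, and scaling to 15 macrophage or 33 embryonic markers. Deviations of same-numbered libraries from their group means correlated at 0.041, −0.067 and 0.381, so the numbers were not taken to pair the libraries. Some genes of the lists are not reported here by name. The fit was tested on simulated data with a common dispersion for all genes and simulated rises as many as falls. The calls in these libraries were mostly falls, so the simulation does not match them.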

Additional observations from a re-analysis of the deposited data

How the results depend on the processing

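Of 120 refits of the members' fold changes, 2 changed direction. Scaled to macrophage markers, Casp6 was at −0.05 and Casp9 at −0.080; scaled to embryonic markers, Casp2 was at 0.55, Parp1 at 0.41, Smarcc1 at 0.24 and Smarcc2 at 0.79. The members' median stayed 0.15 to 0.30 above that of all tested genes in every alternative. Where only the scaling changed, this was nearly fixed in advance. The number of members with an adjusted p of at most 0.1 was 2, and became 4 with DESeq2, 0 with library totals or macrophage scaling, 1 with RLE size factors or a filter of 1 CPM in 3 libraries, 6 without a filter on low counts, 8 with embryonic scaling, and 0 to 6 with a library left out. The number of members called was 0, 8 with embryonic scaling and 2 at adjusted p alone. All genes called numbered 689, 0 with macrophage scaling (3061 at an unadjusted p under 0.05), 8744 with embryonic scaling, 94 at an adjusted p of 0.05, 1665 at adjusted p of 0.1 alone, and 0 to 1244 with a library left out, the 0 without control replicate 1 (2479 at an unadjusted p under 0.05) and 1244 without control replicate 3. The 13 pathway genes past the adjusted p became 23 with DESeq2, 20 with limma-voom, 2 with library totals, 28 without a filter, 0 with macrophage scaling, 66 with embryonic scaling and 0 to 32 with a library left out. With the replicate block, which takes same-numbered libraries as pairs, 1164 genes and 0 members were called. By adjusted p alone, 26.2% of all tested genes, 6 members and 34 pathway genes passed. The pairing is not stated in the labels. The log2 ratio of inflammatory to apoptotic caspases differed between groups by 0.034, and by −0.014 to 0.059 with a library left out. The causes were not tested. With 3 libraries a group, a difference of the size seen here passed or failed with the library left out. Casp6, the least covered member, had 62 to 200 counts per library, and the part of depth was not tested.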
